A study of Mus musculus with 12 samples.

Results

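The genes described here encode the nuclear subunits of the mitochondrial respiratory chain and of ATP synthase in mouse cytotoxic T lymphocytes (CTL). Members were the rows whose symbol began with Nduf, Sdha to Sdhd, Uqcr, Cox4 to Cox8 or Atp5, a rule that used no measured value, and 85 of the 11022 genes in the table met it. By textbook role, 35 were subunits of complex I (7 of the catalytic core and 28 accessory), 4 of complex II, 8 of complex III, 14 of complex IV and 15 of complex V. Ndufa4, now known as a complex IV subunit, was placed there in spite of its symbol. The other 9 matched by symbol alone. They were 6 genes named as assembly factors (Ndufaf1, Ndufaf2, Ndufaf3, Ndufaf4, Sdhaf1 and Sdhaf2) together with Atp5s, Atp5sl (now Dmac2) and Cox4nb. The last is an older name of Emc8, which belongs to an endoplasmic reticulum membrane complex.

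Messenger RNA was sequenced from 12 cultures of CTL carrying the transgenic P14 T cell receptor (TCR), which recognises the gp33–41 peptide of lymphocytic choriomeningitis virus. All CTL came from female, young adult P14 mice, had been activated earlier with that peptide, and were kept in interleukin 2 at 20 ng/mL throughout. The 4 groups held 3 cultures each. Unstimulated CTL received no further peptide. TCR cultures received the peptide at 100 ng/mL for 4 h, TCR+PI3Kdi cultures received it with the PI3K p110δ inhibitor IC87114 at 10 µM, and TCR+MEKi cultures received it with the MEK1/2 inhibitor PD184252 at 2 µM. Lymph nodes or spleens of 3 mice gave the biological replicates, and the cells were grown in vitro, so the cultures stand for CTL made outside the animal. Values are FPKM, a level per length of exon that the authors corrected for the depth of each library and scaled between cultures.

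The respiratory chain passes electrons from NADH (complex I) or succinate (complex II) through ubiquinone, complex III, cytochrome c and complex IV to oxygen. Complexes I, III and IV pump protons across the inner membrane, and ATP synthase (complex V) uses the return flow to make ATP. Complex II, succinate dehydrogenase, pumps no protons, works in the tricarboxylic acid cycle as well, and is the complex whose subunits are all nuclear genes. T cells raise both glycolysis and respiration after activation, and effector CTL keep using mitochondria while they kill and secrete.

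Since the table gives no read totals, the spacing of low FPKM values was used to estimate depth, at 7.81 to 13.22 M effective reads per culture. The summed FPKM of all genes was 470420 to 495945 in unstimulated cultures, 620715 to 666922 in TCR, 549897 to 585849 in TCR+PI3Kdi and 524343 to 539350 in TCR+MEKi. Summed over the 8 CD8 T cell markers, FPKM was at least 10344 in every culture, and granzyme B made up most of it. Markers of B cells (4 genes) and red cells (2 genes) were not analysed here, as the authors removed genes of low count and their levels are not known. Of 5 myeloid markers only Cd68 had values, between 4.88 and 8.44 FPKM, and of 3 dendritic markers only Itgax, at 0.75 or lower. Col1a1, the 1 stromal marker of 2 with values, was at 0.43 FPKM or lower. Cd4 was at 0.28 to 0.99 FPKM in unstimulated and TCR+MEKi cultures and 1.96 to 3.65 in the others. By the test used below Cd4 and Col1a1 were higher with TCR. Against TCR alone, Cd4 was lower in TCR+MEKi (log2 difference -2.40). Col1a1 was lower in TCR+PI3Kdi (-1.23) and in TCR+MEKi (-1.48). The part of other cells in the results was not tested.

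Per unit length, the members were abundant. Their median over the 12 cultures was 103 FPKM, against 10.9 for all genes, and 44 of 85 averaged at least 100 FPKM. Atp5b, the catalytic beta subunit of ATP synthase, stood highest at 734 FPKM, ahead of Cox4i1, a regulatory subunit of complex IV, at 428 FPKM and Atp5g3, which encodes the membrane ring subunit c, at 415 FPKM. Medians by complex ran from 74.4 FPKM for complex I and 79.2 for complex II to 141 for complex III, 238 for complex V and 243 for complex IV. Within complex I the core subunits had a median of 55.1 FPKM and the accessory ones 89.2. The assembly factors and other matches lay far lower, at a median of 13.8 FPKM.

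Isoforms that mark heart and skeletal muscle were low beside their partners. Cox6a2 averaged 1.04 to 1.39 FPKM by group and Cox7a1 3.99 to 6.0 FPKM. Cox6a2 took 0.138 to 0.588% of the summed FPKM of Cox6a1 and Cox6a2 in any culture, and Cox7a1 took 1.65 to 4.31% of that of Cox7a1 and Cox7a2. The lung isoform Cox4i2 was not analysed here. These low rows passed the authors' count filter and none of their differences passed the test. The 3 genes for the identical mature subunit c had unequal FPKM. Atp5g3 gave 53.4 to 60.8% of their summed FPKM, Atp5g1 17.7 to 23.5% and Atp5g2 20.0 to 23.7%. FPKM divides by exon length, which is 4778 bases for Atp5g1, 731 for Atp5g2 and 724 for Atp5g3 in the annotation used here. The authors' own lengths are not given here, and unequal use of the genes was not tested. Transcripts of Atp5g2 share 86.4% of their 100-base stretches with other genes, mainly Gm10175, so its share is uncertain.

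The question of the first comparison is what antigen receptor triggering changes in CTL. After 4 h of TCR stimulation all 4 subunits of succinate dehydrogenase fell, as did the complex I core subunits Ndufs1, Ndufs7 and Ndufv1, while Ndufaf4, a complex I assembly factor, rose by 0.87 on the log2 scale, the largest change of any member. Subunits of complexes III, IV and V that passed the test were nearly all higher, but by less than 0.5, and those rises depend on how cultures are scaled. Differences are in log2(FPKM + 0.1) and a gene passed at a Benjamini-Hochberg adjusted p under 0.05 over all 11022 genes in limma, fitted to all 12 cultures. By this test 31 of 85 members were higher and 11 lower. Over all genes 33.6% passed higher and 34.9% lower, so the count of higher members was near the background and that of lower members below it. None was past 2-fold, a limit that 20.0% of all genes exceeded. In whole cultures, fewer cells of a type and less RNA per cell cannot be told apart.

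Scaling decides what can be said about the family as a whole. On the deposited scale the members' median difference was 0.13 and that of all genes -0.01. With every culture brought to the same FPKM sum, the median of all genes moved to -0.41 and that of the members to -0.29, 1 member passed higher and 63 lower, and 24 of the 31 higher members turned sign. Quantile normalisation gave 13 higher and 31 lower. The share of all genes that passed under either of these scalings is not given here. The counts are therefore not read as a trait particular to the members. Ndufaf4 alone passed higher under all 3 scalings, whereas all 11 members that passed lower did so under each of them. A common sum moved the median of all genes down, so it favoured lower calls over higher ones. The contrast is therefore no test of whether falls are firmer than rises. Relative to the median gene, the members stood at 0.14 on the deposited scale, 0.12 with a common sum and -0.04 after quantile normalisation.

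**Figure D1:**
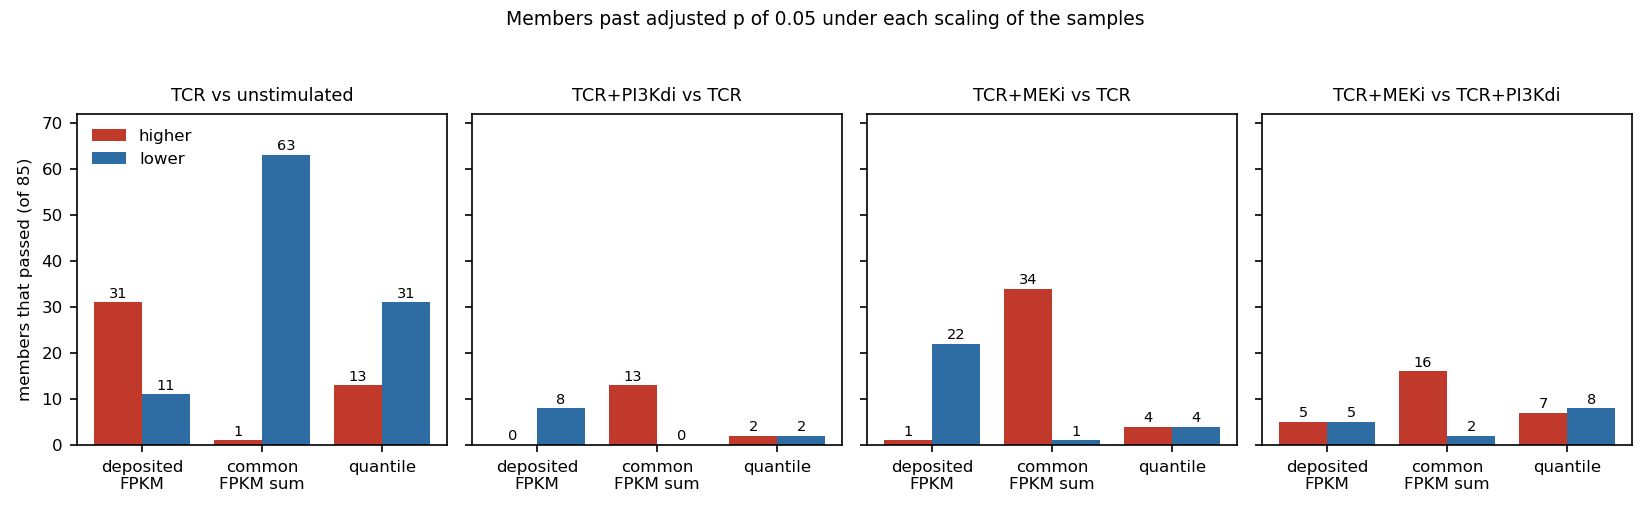
Bars count the members (of 85, vertical axis) that passed higher (red) or lower (blue) in each of the 4 comparisons under 3 scalings of the cultures. For TCR vs unstimulated the counts went from 31 higher and 11 lower on deposited FPKM to 1 and 63 with a common FPKM sum, and for TCR+MEKi vs TCR from 1 and 22 to 34 and 1. The share of all genes that passed under the other scalings is not given here.

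Complex II was the clearest case. Sdha, the flavoprotein that oxidises succinate, was at 71.9, 74.0 and 72.5 FPKM in unstimulated cultures and at 57.4, 55.7 and 55.0 with TCR. The groups did not overlap, and Sdha fell by 0.38 on the log2 scale (SE 0.0455, adjusted p = 3.1e-06). Sdhb, the iron-sulphur subunit, went from 126, 119 and 149 FPKM to 100.1, 95.7 and 98.4, and fell by 0.42 (SE 0.0801, adjusted p = 3.0e-04). The membrane anchors followed with smaller steps. Sdhc was at 68.3, 70.6 and 76.2 FPKM before and 63.1, 61.1 and 56.3 after stimulation (log2 difference -0.25, adjusted p = 0.00296), and Sdhd at 107, 105 and 108 before and 95.3, 91.8 and 93.1 after (-0.19, adjusted p = 0.00185). Each of the 4 was lower in every TCR culture than in every unstimulated culture, and each passed under all alternatives run and without any 1 culture. A common FPKM sum moved the median of all genes to -0.41, so passing lower there is no test of these falls. Relative to the median gene, the complex II median stood at -0.31 on the deposited scale. It was -0.32 with a common sum and -0.39 after quantile normalisation. Over all genes 34.9% passed lower on the deposited scale. The share of all genes whose groups did not overlap is not given here.

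A share within a culture does not depend on a common scaling factor. Complex II made up 3.31 to 3.44% of the summed FPKM of subunits of complexes I to V in unstimulated cultures and 2.35 to 2.58% in TCR cultures, with 2.60 to 2.72% in TCR+PI3Kdi and 2.66 to 2.75% in TCR+MEKi. Complex I went from 25 to 25.4% without stimulation to 24.0 to 24.3% with TCR. Complex III moved the other way, from 10.5 to 10.8% to 11.7% in all 3 TCR cultures, and complex IV from 25.2 to 25.5% to 26.1 to 27.3%. Complex V took 35.2 to 35.7% and 34.4 to 35.6%, ranges that overlapped. These shares are descriptions of the cultures and were not tested.

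**Figure D2:**
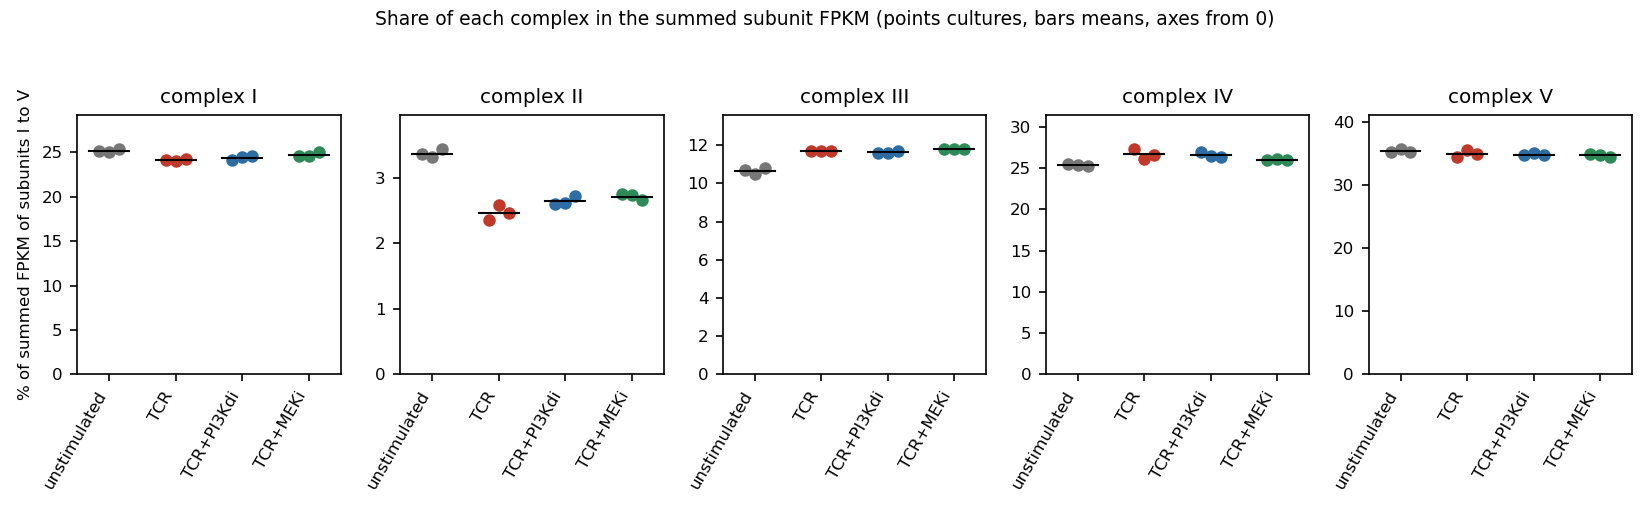
Each panel gives 1 complex, with its percent of the summed FPKM of all subunits of complexes I to V on the vertical axis (from 0), 1 point for each culture and a bar at the mean of each group. Complex II lies at 3.31 to 3.44% in unstimulated cultures and at 2.75% or less in every stimulated culture, and complex III lies at 10.8% or less in unstimulated cultures and at 11.6% or more in the others.

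Of the 7 core subunits of complex I, which carry the flavin and iron-sulphur centres, 3 fell, none passed higher and 4 did not pass. With a common FPKM sum all 7 passed lower, but their median there was -0.44 and that of all genes -0.41. Core and accessory subunits were not tested against each other. Ndufs1, the largest subunit, was at 35.8, 36.6 and 38.9 FPKM in unstimulated cultures and 30.9, 32.6 and 28.1 with TCR (log2 difference -0.28, SE 0.0618, adjusted p = 9.5e-04). Ndufs7, next to the ubiquinone site, had the lowest difference of the complex at -0.38 (SE 0.122, adjusted p = 0.0115), from 65.3, 59.5 and 73.6 FPKM to 58.3, 46.4 and 47.5. The call for Ndufs7 was lost without unstimulated culture 3 (adjusted p = 0.0576). Ndufv1, which binds NADH, went from 50.1 ± 3.42 to 43.2 ± 2.80 FPKM (SD, n = 3 each, log2 difference -0.21, adjusted p = 0.0192), and its call was lost without unstimulated culture 3 (adjusted p = 0.0913) or TCR culture 2 (adjusted p = 0.0916).

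Of the 28 accessory subunits, which surround that core, 8 passed higher, 1 lower and 19 did not pass. The lower one was Ndufa9, a call lost when a culture was left out. With a common FPKM sum none passed higher and 21 lower. The accessory median there was -0.32, against -0.41 for all genes. Ndufa1 had the highest difference at 0.37 (SE 0.0771, adjusted p = 5.6e-04), from 80.9, 81.9 and 97.0 FPKM to 117, 106 and 112, but stood at -0.04 with a common FPKM sum. The lowest TCR value of Ndufa1 was above the highest unstimulated value.

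All 8 complex III subunits had differences above 0 on the deposited scale and 5 passed higher, while with a common FPKM sum none passed higher and 5 passed lower. Uqcrfs1, the Rieske iron-sulphur protein, was at 99.8, 97.7 and 104 FPKM without stimulation and at 159, 131 and 134 with TCR (log2 difference 0.48, SE 0.0728, adjusted p = 3.2e-05). With a common FPKM sum it stood at 0.07 and did not pass. The core protein Uqcrc1 was at 101 ± 3.47 FPKM and 101 ± 7.05 (SD, n = 3 each) and did not pass (adjusted p = 0.939). Differences in the complex ranged from 0.01 to 0.48, and its subunits were not tested against each other.

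Complex IV, cytochrome c oxidase, had 9 of 14 members higher and none lower on the deposited scale, against none higher and 8 lower with a common FPKM sum. Ndufa4 had the highest difference, from 65.2, 67.1 and 63.4 FPKM to 101, 79.0 and 79.0 (0.40, SE 0.0893, adjusted p = 0.00115, and -0.02 with a common FPKM sum). Cox7a2l, which joins complexes III and IV into supercomplexes, was at 111, 108 and 119 FPKM and then at 153, 136 and 137 (0.33, adjusted p = 3.1e-04, and -0.08 with a common FPKM sum). TCR culture 1 was the highest of its group for each of these genes. Cox4i1 (0.22), Cox6a1 (0.26) and Cox8a (0.19) passed as well, with the opposite sign under both other scalings, and their calls were lost without TCR culture 1 (adjusted p = 0.113, 0.0805 and 0.0847), that of Cox4i1 also without unstimulated culture 1 (0.0802) or 2 (0.0743). Cox7a2 (0.26) was at -0.15 with a common FPKM sum. Cox5a and Cox5b did not pass.

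In ATP synthase 5 of 15 members passed higher and 1 lower, against none and 12 with a common FPKM sum. Atp5g1 had the highest difference, from 132, 138 and 117 FPKM to 199, 160 and 170 (0.45, SE 0.0761, adjusted p = 1.0e-04, and 0.03 with a common FPKM sum). Atp5g3, at 376 ± 12.8 FPKM without stimulation and 465 ± 16.9 with TCR (SD, n = 3 each), differed by 0.31, but by -0.11 with a common FPKM sum and -0.09 after quantile normalisation, and Atp5g2 did not pass. Atp5f1, subunit b of the peripheral stalk, fell from 274, 271 and 253 FPKM to 229, 229 and 210, a difference of -0.26 (SE 0.0603, adjusted p = 0.00153) that passed under all alternatives run. Every TCR value of Atp5f1 lay below its lowest unstimulated value, and 21% of its exon bases lie opposite exons of Wdr77. The catalytic subunits differed little. Atp5b was at 717 ± 8.38 and 785 ± 22.6 FPKM (0.13, adjusted p = 0.0283), a call lost without any 1 of 3 cultures (adjusted p = 0.0723 to 0.0871) and reversed under both other scalings, and Atp5a1 did not pass.

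Among the symbol matches that are no subunits, Ndufaf4 was at 10.4, 9.37 and 11.3 FPKM in unstimulated cultures and at 18.2, 19.9 and 18.8 with TCR. That is a fold of 1.83 (log2 difference 0.87, SE 0.0820, adjusted p = 2.2e-07), with no overlap between groups. Ndufaf1 (0.20) and Ndufaf2 (0.32), which also help to build complex I, passed higher, with the opposite sign on a common FPKM sum. The call for Ndufaf1 was lost without any 1 of 4 cultures (adjusted p = 0.0663 to 0.117) and that for Ndufaf2 without any 1 of 3 (adjusted p = 0.0633 to 0.158). Sdhaf1, which helps to insert iron-sulphur clusters into Sdhb, passed at 0.46, but 69.6% of its exon bases lie opposite exons of E130208F15Rik. Atp5s, at 3.01 ± 0.69 FPKM without stimulation and 1.82 ± 0.06 with TCR (SD, n = 3 each), had the lowest difference of any member at -0.67 (adjusted p = 0.00347), and Cox4nb had -0.40 (adjusted p = 0.00368).

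**Figure D3:**
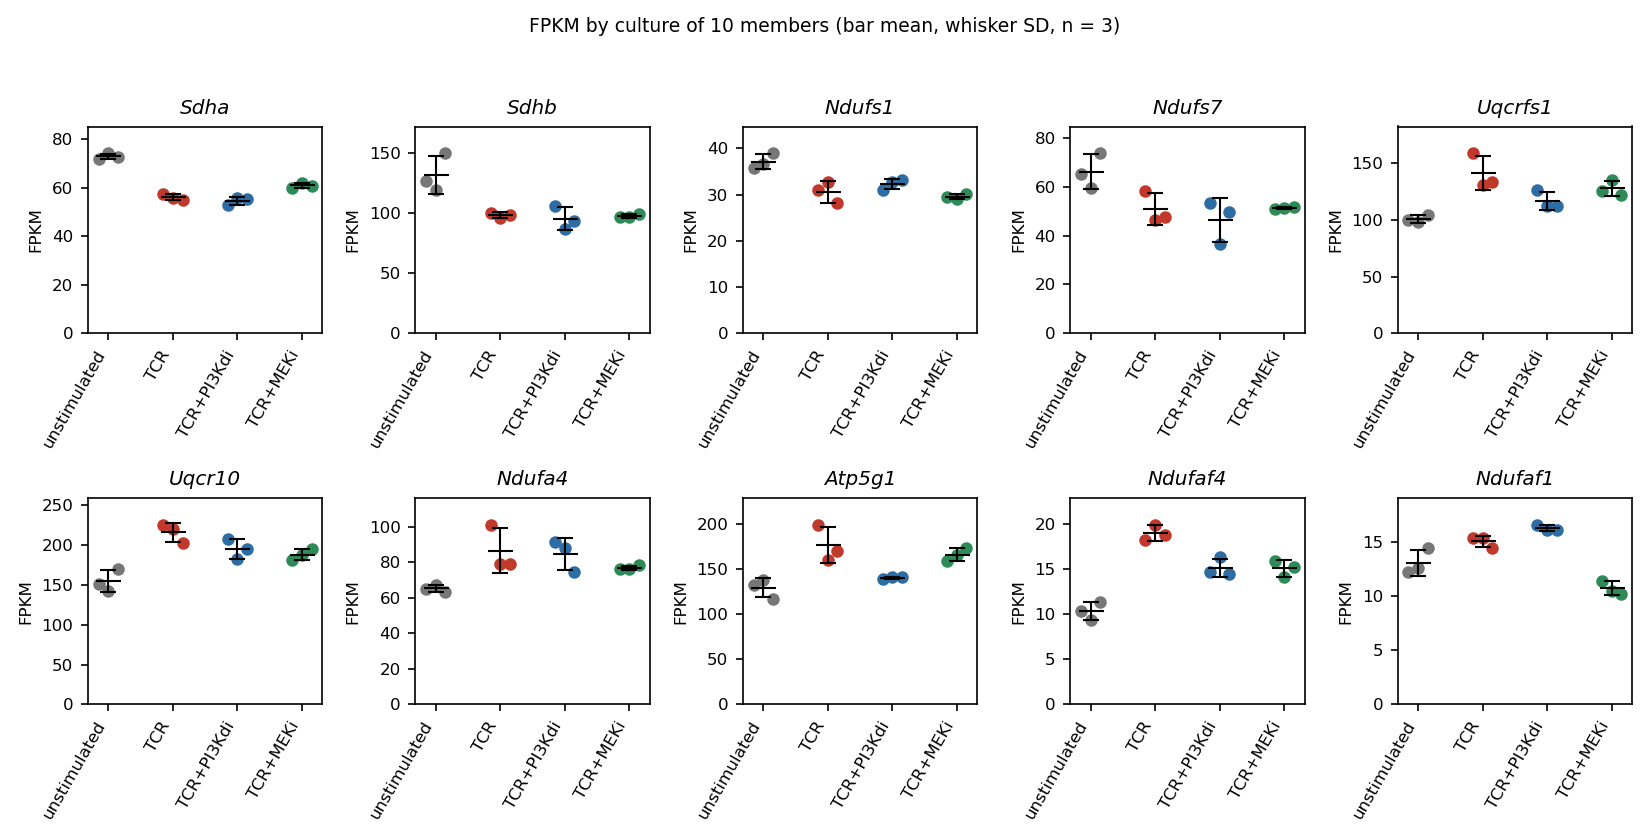
FPKM (vertical axes, from 0) in each culture of 10 members, by group, with the mean as a bar and the SD as whiskers (n = 3). Sdha, Sdhb and Ndufs1 sit lower in all TCR cultures than in all unstimulated cultures, Ndufaf4 rises from at most 11.3 to at least 18.2 FPKM, and Ndufaf1 is at 10.3 to 11.5 FPKM in TCR+MEKi cultures against 14.5 or more in TCR and TCR+PI3Kdi cultures.

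Shorter members tended to have higher differences with TCR. Over the 85 members, Spearman's rho between exon length and the log2 difference was -0.31, against -0.05 over 10930 genes with a length. It was 0.02 for PI3Kdi (0.23 over all genes) and 0.37 for MEKi (0.16 over all genes). The genes of complex II were longer than most members, at 1142 to 3171 exon bases against a member median of 931. Members share libraries and normalisation, so rho is a description, and the part of length in the result was not tested.

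Promoters of 3 of the 4 complex II genes, which fell together, and of Ndufaf4 and Atp5g1, the members with the largest rises of an assembly factor and of a complex V subunit, are printed to show their letters. RefSeq windows on GRCm38.p6, 250 bases before to 50 after each start, were found for 72 of the 85 members (78 windows). Those shown are for Sdha at chr13:74350191-74350490 on the minus strand, Sdhb at chr4:140961021-140961320 on the plus strand, Sdhd at chr9:50603800-50604099 on the minus strand, Ndufaf4 at chr4:24897833-24898132 on the plus strand and Atp5g1 at chr11:96075582-96075881 on the minus strand, each 5′ to 3′ along its gene. Capitals mark matches, on either strand, to the core letters of NRF1 (GCGCANGCG), ETS factors including GABP (CCGGAAG), YY1 (AAGATGGCG), SP1 (GGGCGG), the cyclic AMP response element (TGACGTCA) or the E-box (CACGTG), and matches that overlap run together.
Sdha: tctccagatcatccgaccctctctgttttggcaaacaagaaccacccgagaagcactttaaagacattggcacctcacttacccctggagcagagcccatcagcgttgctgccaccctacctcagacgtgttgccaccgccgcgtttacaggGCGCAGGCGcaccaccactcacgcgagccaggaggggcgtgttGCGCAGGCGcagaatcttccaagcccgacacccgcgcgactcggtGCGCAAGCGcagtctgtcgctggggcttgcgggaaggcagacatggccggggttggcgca
Sdhb: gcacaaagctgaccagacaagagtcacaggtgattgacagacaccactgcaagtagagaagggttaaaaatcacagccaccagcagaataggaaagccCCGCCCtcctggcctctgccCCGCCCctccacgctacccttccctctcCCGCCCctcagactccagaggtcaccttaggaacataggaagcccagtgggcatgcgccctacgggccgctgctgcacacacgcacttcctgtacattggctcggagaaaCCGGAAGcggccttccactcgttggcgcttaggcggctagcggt
Sdhd: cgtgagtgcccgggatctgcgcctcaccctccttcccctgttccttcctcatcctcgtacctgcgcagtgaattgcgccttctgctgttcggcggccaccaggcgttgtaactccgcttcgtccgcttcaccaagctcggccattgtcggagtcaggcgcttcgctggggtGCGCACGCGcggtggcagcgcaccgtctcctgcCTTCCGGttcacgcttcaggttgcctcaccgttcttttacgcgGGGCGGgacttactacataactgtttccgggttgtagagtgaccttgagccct
Ndufaf4: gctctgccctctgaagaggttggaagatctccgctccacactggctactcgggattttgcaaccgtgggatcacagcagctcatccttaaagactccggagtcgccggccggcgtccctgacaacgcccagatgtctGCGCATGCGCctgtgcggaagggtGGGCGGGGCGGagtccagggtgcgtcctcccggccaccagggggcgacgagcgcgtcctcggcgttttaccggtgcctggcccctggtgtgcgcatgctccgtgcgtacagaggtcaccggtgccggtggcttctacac
Atp5g1: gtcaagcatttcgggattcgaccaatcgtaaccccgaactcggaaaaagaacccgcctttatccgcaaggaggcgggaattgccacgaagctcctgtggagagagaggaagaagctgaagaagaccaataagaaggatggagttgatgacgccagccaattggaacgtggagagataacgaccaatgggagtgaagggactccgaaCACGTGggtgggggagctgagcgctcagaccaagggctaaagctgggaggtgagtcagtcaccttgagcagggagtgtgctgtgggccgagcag
Sdha held 3 NRF1 matches, Sdhb 3 SP1 and 1 ETS, Sdhd 1 each of NRF1, ETS and SP1, Ndufaf4 an NRF1 match on both strands and 2 of SP1, and Atp5g1 1 E-box. NRF1 letters were in 26.9% of the members' windows and 13.7% of the 10616 windows of all genes in the table. YY1 letters were in 11.5 and 3.2%, ETS letters in 24.4 and 18.7%, SP1 letters in 43.6 and 63.3%, the cyclic AMP response element in 5.1 and 3.2% and the E-box in 11.5 and 10.2%. A match describes the letters only, and no binding was measured.

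The next comparison asks what PI3K p110δ activity adds to the TCR response. With PI3Kdi no member passed higher than with TCR alone, and 8 passed lower, among them Atp5g1 and Ndufaf4, each lower by 0.32 on the log2 scale. Over all genes 12.7% passed higher and 12.8% lower, and 1.88% were past 2-fold, a limit no member reached. The members' median was -0.11 on the deposited scale, against 0.02 for all genes. With a common FPKM sum it was 0.07 (all genes 0.19), 13 members passed higher and none lower, and quantile normalisation gave 2 and 2. None of the 8 passed under all 3 scalings. Without 1 culture the count of lower members ran from 2 (without TCR culture 1 or TCR+PI3Kdi culture 3) to 20 (without TCR+PI3Kdi culture 1), with 3 without TCR+PI3Kdi culture 2, 5 without TCR culture 3 and 17 without TCR culture 2. With the replicate block, for which these cultures deviated together by number, 11 passed lower, Uqcrc1, Uqcrq and Ndufs8 being added.

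Atp5g1 was at 139, 141 and 141 FPKM in TCR+PI3Kdi cultures, below the lowest TCR value of 160 (SE 0.0761, adjusted p = 0.00607). Ndufaf4 was at 14.7, 16.3 and 14.4 FPKM, below all TCR cultures and above all unstimulated ones (SE 0.0820, adjusted p = 0.00950). These 2 calls held when any 1 culture was left out, unlike the other 6. Ndufab1, the acyl carrier protein of mitochondria and a complex I subunit, was at 56.99, 47.6 and 51.6 FPKM with PI3Kdi and 64.4, 62.1 and 62.5 with TCR (-0.28, adjusted p = 0.0188), and its call was lost without TCR culture 1 or TCR+PI3Kdi culture 2 or 3 (adjusted p = 0.0532 to 0.0884).

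Uqcrfs1 was at 126, 112 and 113 FPKM with PI3Kdi (-0.27, adjusted p = 0.0144), and its call was lost without any of the same 3 cultures (adjusted p = 0.0576 to 0.0670). Cox6a1 (-0.26, adjusted p = 0.0400), Cox5b (-0.20, adjusted p = 0.0463) and Atp5b (-0.17, adjusted p = 0.0222) were the other named calls, and without TCR culture 1, the highest of its group for each, adjusted p was 0.167, 0.203 and 0.0756. The calls were also lost without TCR+PI3Kdi culture 2 (0.160, 0.137 and 0.0638) or 3 (0.117, 0.102 and 0.0733). Those of Cox6a1 and Cox5b were lost without TCR culture 3 (0.0923 and 0.0806). These fits held no replicate block, and with the block none of the 8 lower calls was lost. By replicate number, Cox6a1, Cox5b and Atp5b were each lower with PI3Kdi than with TCR alone every time. That same numbers mark the same mouse is not stated. Atp5d, the F1 delta subunit, named after its value was seen, passed too (-0.27, adjusted p = 0.0391) and was among the calls lost when a culture was left out. The 4 complex II subunits lay between -0.05 and 0.01 and none passed. With a common FPKM sum 2 passed higher, at a complex II median of 0.15 against 0.19 for all genes. For Sdha the TCR+PI3Kdi cultures were at 52.7, 55.6 and 55.2 FPKM, beside 57.4, 55.7 and 55.0 with TCR.

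The MEK inhibitor comparison asks the same of the ERK pathway. With MEKi, 22 members passed lower than with TCR alone and 1, Sdhaf1, higher. The members with the lowest differences were the complex I assembly factors Ndufaf1, lower by 0.49 on the log2 scale, Ndufaf2, by 0.47, and Ndufaf4, by 0.33. Ndufaf3, the other member with an Ndufaf symbol, was at 0.10 and did not pass (adjusted p = 0.646). Of 8 complex I assembly factors without an Nduf symbol, none passed with MEKi. Of the 22 lower calls 10 passed when any 1 culture was left out, and the count was 11 without TCR culture 1, 12 without TCR+MEKi culture 1 and 14 without TCR+MEKi culture 2. Over all genes 18.9% passed higher, 18.2% lower and 3.49% past 2-fold. No member was past 2-fold. The members' median was -0.13, against 0.01 for all genes, but 0.13 with a common FPKM sum (all genes 0.26), where 34 members passed higher and 1 lower. Quantile normalisation gave 4 higher and 4 lower, and Ndufaf1 alone passed lower under all 3 scalings. This comparison, the previous one and the one with unstimulated cultures share the TCR cultures, so their values are set side by side and are not independent.

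Ndufaf1 was at 11.5, 10.5 and 10.3 FPKM with MEKi, against 15.4, 15.3 and 14.5 with TCR (SE 0.0752, adjusted p = 1.8e-04), and at 16.6, 16.1 and 16.1 with PI3Kdi. All MEKi values lay below the lowest value of any other group. Ndufaf2 was at 13.1, 11.1 and 10.6 FPKM with MEKi and 16.4, 14.7 and 17.1 with TCR (SE 0.116, adjusted p = 0.00573). Ndufaf4 was at 15.9, 14.1 and 15.2 FPKM (SE 0.0820, adjusted p = 0.00600), close to its values with PI3Kdi. Both had the same sign but did not pass with a common FPKM sum (-0.21 and -0.07).

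On the deposited scale 3 of 35 subunits in complex I and none in complex II passed lower. So did 4 of 8 in complex III, 6 of 14 in complex IV and 6 of 15 in complex V. With a common FPKM sum no subunit passed lower, and 14, 4, 3, 3 and 6 in complexes I to V passed higher. The medians there were 0.14, 0.27, 0.09, 0.08 and 0.12 for complexes I to V, against 0.26 for all genes. The share of all genes that passed higher there is not given here. These counts are therefore not read as a trait of the complexes. Atp5j, the coupling factor 6 subunit of ATP synthase, was at 165, 156 and 162 FPKM with MEKi and 200.2, 196 and 197 with TCR, groups far apart for their spread (-0.30, SE 0.0517, adjusted p = 4.6e-04). Of its exon bases, 21.1% lie opposite exons of Gabpa. Cox7a2, the form of subunit VIIa found outside muscle, was at 146, 135 and 147 FPKM against 187, 164 and 178 (-0.30, adjusted p = 0.00849). Uqcrh, the hinge protein of complex III, was at 248 ± 2.30 FPKM against 301 ± 26.6 (SD, n = 3 each, -0.28, adjusted p = 0.00909), and Ndufa1 at 92.2 ± 5.49 against 112 ± 5.29 (-0.28, adjusted p = 0.0110). With a common FPKM sum these 4 differences were -0.04, -0.04, -0.02 and -0.02 and none passed.

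Cox4i1 (-0.23), Cox7a2l (-0.21) and Atp5g3 (-0.24) also passed lower and stood above 0 with a common FPKM sum. Without TCR culture 1 the calls of Cox4i1 (adjusted p = 0.145) and Cox7a2l (0.0779) were lost, as they were without TCR+MEKi culture 1 (0.0755 and 0.0557), and that of Cox4i1 also without TCR+MEKi culture 3 (0.107). Sdhaf1 was at 23.7, 27.0 and 26.3 FPKM with MEKi and at 20.4, 21.3 and 15.1 with TCR (0.45, SE 0.135, adjusted p = 0.0170). Its call was lost without TCR culture 3 (adjusted p = 0.0839) or TCR+MEKi culture 2 (0.0571) or 3 (0.0521), and its reads cannot be told apart from those of E130208F15Rik if strand was not used in counting. Sdha was at 59.98, 61.9 and 60.7 FPKM with MEKi, between the TCR and the unstimulated values, and missed the threshold (0.12, SE 0.0455, adjusted p = 0.0520).

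**Figure D4:**
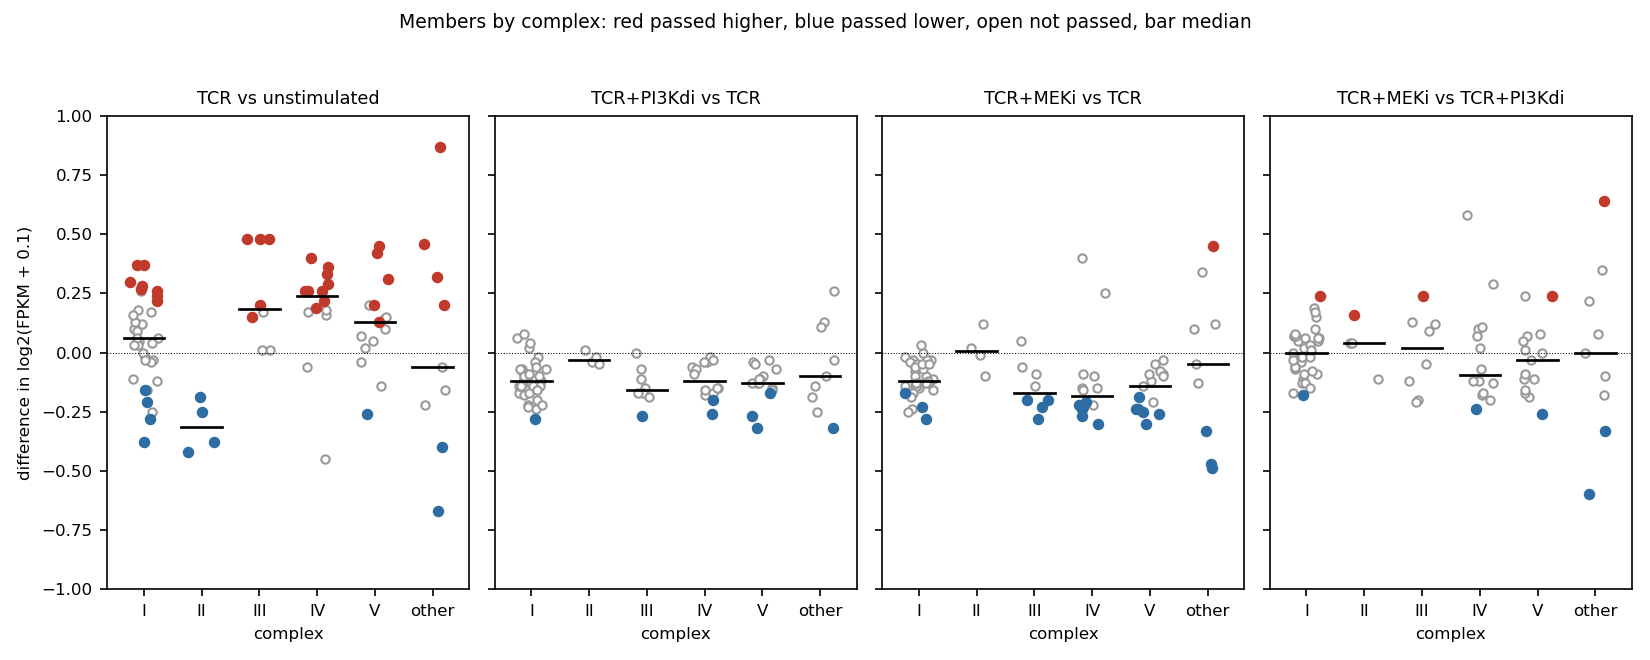
Each point is 1 member, placed by complex (horizontal axis) and by its difference in log2(FPKM + 0.1) on the deposited scale (vertical axis), for the 4 comparisons. Filled points passed (red higher, blue lower), open points did not and bars are medians. All 4 complex II points passed lower with TCR, where most filled points of complexes III to V are red. With a common FPKM sum no subunit passed higher there. Blue prevails with MEKi vs TCR, where 34 members passed higher and 1 lower with a common FPKM sum. That sum moved the median of all genes to -0.41 with TCR and to 0.26 with MEKi vs TCR.

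The inhibitor groups were compared directly, which gives the difference between their effects since both refer to the same TCR cultures. In this comparison 5 members passed higher with MEKi than with PI3Kdi and 5 lower, where 14.5 and 14.4% of all genes passed and 3.09% were past 2-fold, a limit no member reached. The members' median was -0.00 and that of all genes -0.01. Ndufaf1, lower with MEKi by 0.60 on the log2 scale (SE 0.0752, adjusted p = 3.3e-05), showed the largest fall, followed by Ndufaf2 (-0.33, adjusted p = 0.0466), Atp5j (-0.26, adjusted p = 0.00161), Cox7a2 (-0.24, adjusted p = 0.0342) and Ndufb3 (-0.18, adjusted p = 0.0324). Higher with MEKi were Sdhaf1 (0.64, adjusted p = 0.00241), Uqcrq, the ubiquinone-binding subunit 8 of complex III (0.24, adjusted p = 0.0357), Ndufab1 (0.24, adjusted p = 0.0332), Atp5g1 (0.24, adjusted p = 0.0282) and Sdha (0.16, adjusted p = 0.0163).

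These 10 kept their direction under each scaling, and 7 passed under all 3, the exceptions being Ndufaf2, Cox7a2 and Ndufb3. Sdhaf1, Ndufaf1 and Atp5j also passed when any 1 of the 6 cultures was left out, and the other 7 did not. Of the exon bases of Sdhaf1, 69.6% lie opposite exons of E130208F15Rik, a limit that leaving out a culture cannot address. Uqcrq was at 308, 293 and 323 FPKM with MEKi and at 300.2, 236 and 250 with PI3Kdi. The groups overlapped through PI3Kdi culture 1, while by replicate number Uqcrq was higher with MEKi each time. Its call was lost without PI3Kdi culture 2 or 3 or MEKi culture 1 or 3 (adjusted p = 0.0791 to 0.160). Sdha did not overlap between these groups, nor did Atp5j, at 197, 197 and 185 FPKM with PI3Kdi.

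Genes around the chain were taken from lists of mitochondrial functions. The subunits encoded in mitochondrial DNA were not analysed here. All companion counts are on the deposited scale, and the genes named as past 2-fold kept their direction and passed under the other 2 scalings as well. For comparison, 33.6% of all genes passed higher and 34.9% lower with TCR, and 20.0% were past 2-fold. The higher and lower shares were 12.7 and 12.8% for PI3Kdi, 18.9 and 18.2% for MEKi, and 14.5 and 14.4% for MEKi vs PI3Kdi. The lists were not tested against these shares. Of 10 subunits and electron carriers with other symbols, 3 passed higher with TCR and 1 lower, with 1 and 2 for PI3Kdi and 1 and 2 for MEKi. Named after their values were seen, those that changed with TCR were Gpd2, the mitochondrial glycerol phosphate dehydrogenase (0.80), Usmg5 (0.46) and 2010107E04Rik (0.26, below 0 with a common FPKM sum), both small ATP synthase subunits, and Etfdh, which passes electrons from fat oxidation to ubiquinone (-0.64). Cyc1, the haem subunit of complex III, had a difference of 0.06 and cytochrome c (Cycs) one of 0.15, and neither passed.

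Assembly factors of complexes III and IV (18 measured of 31 listed) had 8 higher and 4 lower with TCR. Ttc19, which clears fragments of the Rieske protein, passed 2-fold at 4.95, 3.94 and 4.43 FPKM without and 9.57, 9.41 and 9.62 with TCR (log2 difference 1.09, adjusted p = 1.2e-07). Sco2, which loads copper into complex IV, was also past 2-fold (1.10), but all its 100-base stretches occur in transcripts of other genes, mainly Tymp. With PI3Kdi 4 of the 18 passed lower and none higher, and with MEKi 2 lower and 1 higher. Of 8 complex I assembly factors without an Nduf symbol, 3 passed higher and 3 lower with TCR, with 1 and 1 for PI3Kdi and none for MEKi. Of 3 complex V assembly factors, 1 passed higher and 1 lower with TCR, and 1 lower with each inhibitor.

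In the tricarboxylic acid cycle list 3 of 21 genes passed higher with TCR and 6 lower. Pcx, pyruvate carboxylase, which feeds oxaloacetate into the cycle, fell in that comparison from 8.02, 8.87 and 8.30 FPKM to 2.81, 2.90 and 2.77 (-1.54, adjusted p = 3.5e-08). With PI3Kdi 3 passed lower and none higher, and with MEKi 4 passed in each direction. Of 13 genes of ubiquinone synthesis, 5 passed higher and 1 lower with TCR, and those past 2-fold were Coq10b, which binds and delivers ubiquinone (9.03 ± 1.11 to 26.6 ± 2.07 FPKM, 1.55, adjusted p = 7.7e-10), and Coq4 (4.02 ± 0.33 to 8.49 ± 1.14 FPKM, 1.05, adjusted p = 8.0e-07). With PI3Kdi 2 of these genes passed lower and none higher, and with MEKi 3 lower and 2 higher.

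Of 18 regulators of mitochondrial gene expression, 6 passed higher and 5 lower with TCR. Myc, a growth regulator of activated T cells, was at 126, 125 and 122 FPKM without and 298, 267 and 306 with TCR (1.22, adjusted p = 2.0e-10), and Polg, the mitochondrial DNA polymerase, was at 8.99, 9.70 and 9.09 and then at 4.42, 3.86 and 3.99 (-1.16, adjusted p = 6.9e-08). With PI3Kdi 3 passed higher and 5 lower, Myc among the latter (-0.38, adjusted p = 4.6e-04), and with MEKi 6 higher and 2 lower, with Myc at 0.00. MEKi exceeded PI3Kdi for 6 of the 18 and was lower for 2.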

How the data were processed

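Poly(A) RNA of 12 cultures was sequenced with a stranded kit. Per the study's methods, the authors aligned reads with STAR 2.4.2a to mm10, counted them per RefSeq gene with Subread 1.5.0, removed low genes, applied TMM scaling in edgeR and deposited FPKM values, using summed exon length. The strand setting of the counting is not given in the sources used here. FPKM are not counts, so differences were tested on log2(FPKM + 0.1) with limma 3.58.1 in R 4.3.3, over all 11022 genes and 12 cultures with 1 mean per group and an intensity trend, and Benjamini-Hochberg adjustment. The test was checked on simulated data. Whole reads could not be recovered, so depth is an estimate that carries no interval. No value column was left unassigned.

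Members and lists were chosen with earlier results of these data known, and roles were assigned after the table was read. Named were members past 2-fold, the highest and lowest difference in each complex, a list of 25 subunits (24 measured), the 9 other symbol matches, and companion genes past 2-fold. Same-numbered cultures deviated together in 3 of 4 comparisons (every correlation over 0.1 across 9899 genes), but not all did for TCR vs unstimulated (0.1047, 0.1530 and 0.0037). No fit in the main results has a replicate block, and the blocked fit was an alternative. Alternatives were pseudocounts of 0.01 and 1, a mean FPKM of at least 1, a common FPKM sum, quantile normalisation, the compared groups alone, no trend, the replicate block, leaving out each culture and, chosen after seeing the data, voom on approximate reads. Promoter letters were read from RefSeq windows on GRCm38.p6, and matches were counted on both strands. The values of 1 complex I member are not reported here.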

Additional observations from a re-analysis of the deposited data

Results flagged for a closer look

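The effects of the inhibitors, each against the same TCR cultures, differed for 10 members by the direct test of TCR+MEKi against TCR+PI3Kdi (limma, Benjamini-Hochberg adjusted p under 0.05). Higher with MEKi on the log2 scale were Sdhaf1 (0.64), Atp5g1 (0.24), Ndufab1 (0.24), Uqcrq (0.24) and Sdha (0.16). Lower with MEKi were Ndufaf1 (-0.60), Ndufaf2 (-0.33), Atp5j (-0.26), Cox7a2 (-0.24) and Ndufb3 (-0.18). Sdhaf1, 69.6% of whose exon bases lie opposite exons of E130208F15Rik, passed without any 1 culture, as did Ndufaf1 and Atp5j. For the others, the highest adjusted p with a culture left out was 0.106 for Atp5g1, 0.143 for Ndufab1, 0.160 for Uqcrq, 0.0607 for Sdha, 0.161 for Ndufaf2, 0.123 for Cox7a2 and 0.101 for Ndufb3.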

How the results depend on the processing

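With a common FPKM sum, the counts of members higher and lower were 1 and 63 for TCR vs unstimulated (1 past 2-fold, Atp5s), 13 and 0 for PI3Kdi vs TCR, 34 and 1 for MEKi vs TCR and 16 and 2 for MEKi vs PI3Kdi. Quantile normalisation gave 13 and 31 for TCR vs unstimulated, 2 and 2 for PI3Kdi vs TCR, 4 and 4 for MEKi vs TCR and 7 and 8 for MEKi vs PI3Kdi. The members' median turned sign with a common FPKM sum to -0.29 for TCR vs unstimulated, 0.07 for PI3Kdi vs TCR, 0.13 for MEKi vs TCR and 0.07 for MEKi vs PI3Kdi, and after quantile normalisation to -0.09 for TCR vs unstimulated and 0.01 for PI3Kdi vs TCR. For TCR vs unstimulated, a common FPKM sum reversed Ndufa1 (-0.04), Ndufa4 (-0.02), Cox4i1 (-0.20), Cox6a1 (-0.16), Cox7a2 (-0.15), Cox7a2l (-0.08), Cox8a (-0.22), Atp5b (-0.28), Atp5g3 (-0.11), Ndufaf1 (-0.21) and Ndufaf2 (-0.09), and quantile normalisation reversed Cox4i1 (-0.22), Cox6a1 (-0.09), Cox8a (-0.20), Atp5b (-0.35) and Atp5g3 (-0.09). Atp5b turned to 0.01 and 0.04 under these scalings for PI3Kdi vs TCR, and with a common FPKM sum Cox4i1 (0.04), Cox7a2l (0.05) and Atp5g3 (0.02) turned for MEKi vs TCR. The cause of these changes was not tested, and the share of all genes that passed under these scalings is not given here.

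Fitting the compared groups alone left 4 members lower for PI3Kdi vs TCR and 10 for MEKi vs PI3Kdi. Without the intensity trend there were 5 lower for PI3Kdi vs TCR, 14 lower for MEKi vs TCR, and 2 higher and 2 lower for MEKi vs PI3Kdi. A pseudocount of 1 gave 2 higher for MEKi vs TCR, and the filter at a mean FPKM of at least 1 gave 8 lower for MEKi vs PI3Kdi. The cause of these was not tested. Leaving out 1 culture gave 22 to 34 higher and 8 to 14 lower for TCR vs unstimulated, 0 to 1 and 2 to 20 for PI3Kdi vs TCR, 0 to 2 and 11 to 22 for MEKi vs TCR, and 2 to 7 in each direction for MEKi vs PI3Kdi. With the replicate block no call was lost, and counts were 34 higher and 12 lower, 0 and 11, 1 and 25, and 7 and 7 in the same order. The members gained under the block were Cox5b, Ndufa13 and Uqcr11 higher and Ndufb10 lower with TCR, Ndufs8, Uqcrc1 and Uqcrq lower with PI3Kdi, Atp5k, Cox6c and Ndufs4 lower with MEKi, and Atp5d and Ndufaf3 higher and Cox7a2l and Uqcrh lower with MEKi vs PI3Kdi. The part of depth in the spread of the lowest members, such as Cox6a2 and Atp5s, was not tested.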
